A study of Mus musculus with 84 samples.

Results

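Hemoglobin and erythroid transcripts were followed through 5 genes, chosen by their gene names in the deposited count table: the alpha-globin genes Hba-a1 and Hba-a2, the beta-globin genes Hbb-bs and Hbb-bt, and Alas2. They are 5 of the 43629 genes listed, and all 5 were among the 16320 genes with enough counts to be tested. RNA came from the CeA, the central amygdala, a mostly inhibitory brain nucleus involved in fear and drinking, and was sequenced in 84 outbred mice of the HS-CC stock, which was bred from the Collaborative Cross founder strains. There were 43 females and 41 males, with a median age of 15 weeks at the start, and every animal chose between water and 10% ethanol for 13 weeks, so no ethanol-free group exists. Ethanol stayed available until death, the CeA was cut out by laser from stained frozen sections, and 1 poly(A) library was made per animal. Per the labels, up to 3 animals shared a family, which is not given per animal, so animals were not fully independent.

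Hemoglobin is the oxygen carrier of red blood cells, built from alpha and beta chains around heme. Its messenger RNAs persist in reticulocytes, the young red cells of circulating blood, and ALAS2 is the erythroid enzyme that starts heme synthesis, while most other cells use ALAS1. In brain tissue these transcripts mainly mark the blood left in vessels, although low alpha- and beta-globin expression in neurons and glia has also been described. Inbred mouse strains carry different haplotypes of both globin clusters, and the reference genome is that of C57BL/6J.

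The 2 genes of each pair are near copies, which is why their sequences are shown first. On GRCm38, Hba-a1 (ENSMUSG00000069919) lies at chr11:32283511-32284465 and Hba-a2 (ENSMUSG00000069917) at chr11:32296489-32297298, both on the plus strand. Hbb-bs (ENSMUSG00000052305, chr7:103826534-103828096) and Hbb-bt (ENSMUSG00000073940, chr7:103812524-103813996) lie on the minus strand, and Alas2 (ENSMUSG00000025270) at chrX:150547375-150570638 on the plus strand. The reference coding sequences of Hba-a1 and Hba-a2 differed at 1 of 426 bases, C381T, and those of Hbb-bs and Hbb-bt at 1 of 441, C417T, with the first gene's base before the position and positions counted from the A of the start codon. Both changes are silent, so in the reference genome each pair encodes 1 protein. The globin sequences of these outbred animals were not examined. The stretch around each difference is given below, 5′ to 3′ on the coding strand, with the differing base in capitals; the windows are chr11:32284313-32284373, chr11:32297130-32297190, chr7:103826668-103826722 and chr7:103812659-103812713.
Hba-a1: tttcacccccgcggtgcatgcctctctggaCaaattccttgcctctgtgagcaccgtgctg
Hba-a2: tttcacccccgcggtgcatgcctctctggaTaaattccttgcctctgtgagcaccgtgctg
Hbb-bs: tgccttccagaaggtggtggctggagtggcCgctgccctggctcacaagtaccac
Hbb-bt: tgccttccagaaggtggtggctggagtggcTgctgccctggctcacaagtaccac

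Because the copies are so alike, a read can often not be placed on 1 of them. Of all 100-base windows of the reference transcript, 56.5% of those of Hba-a1 and 74.5% of those of Hba-a2 stood unchanged in the partner, as did 62.6% of those of Hbb-bs and 54.8% of those of Hbb-bt. With 50-base windows the shares were 67.5%, 86.9%, 65.8% and 58.3%. The sources used here give neither read length nor the treatment of reads that match more than 1 place, so the split of counts within each pair is uncertain, more than the sum of a pair.

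The 5 genes are expressed together in erythroid cells, and their promoters are shown for that reason: 150 bases before the RefSeq start (GRCm38.p6), with matches to the CCAAT box, to the CACCC box, to the TATA-like ATATAA and, in Alas2 alone, to the GATA-factor motif GATAA in capitals, on either strand. The Hba-a2 window is chr11:32296342-32296491, that of Hbb-bs chr7:103827929-103828078, that of Hbb-bt chr7:103813924-103814073 and that of Alas2 chrX:150547267-150547416. The Hba-a1 window (chr11:32283522-32283671) held the same 147 bases as that of Hba-a2, offset by 3, and is not repeated.
Hba-a2: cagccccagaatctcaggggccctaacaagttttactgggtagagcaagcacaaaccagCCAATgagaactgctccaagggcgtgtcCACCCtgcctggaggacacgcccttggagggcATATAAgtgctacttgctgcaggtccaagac
Hbb-bs: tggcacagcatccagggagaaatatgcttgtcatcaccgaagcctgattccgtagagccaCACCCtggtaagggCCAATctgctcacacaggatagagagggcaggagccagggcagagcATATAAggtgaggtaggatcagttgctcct
Hbb-bt: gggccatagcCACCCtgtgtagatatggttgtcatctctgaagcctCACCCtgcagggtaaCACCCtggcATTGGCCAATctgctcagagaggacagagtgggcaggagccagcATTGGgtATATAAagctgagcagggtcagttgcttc
Alas2: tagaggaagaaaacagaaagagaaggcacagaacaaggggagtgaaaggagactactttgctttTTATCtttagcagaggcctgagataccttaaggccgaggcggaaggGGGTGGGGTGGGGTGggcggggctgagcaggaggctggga

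The CCAAT box, the CACCC box and the motif ATATAA were each present in the windows of all 4 hemoglobin genes, while that of Alas2 held the CACCC box and also the motif GATAA. Over 32851 mouse promoters of the same length, searched on both strands, CCAAT occurred in 24.5%, CACCC in 37.4%, ATATAA in 5.35% and GATAA in 13.3%. In the Hbb-bt window CCAAT and its reverse complement stand side by side. The Hbb-bs and Hbb-bt windows matched at 73.3% of bases, against 98% for the alpha pair.

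Libraries held 24118965 to 42036566 counts (median 31573088.5). The sheet numbers in the sample titles form 4 runs (9 females and 9 males in the first 2, then 10 and 7, then 15 and 16), which served as possible batches in the absence of library dates. Sex labels matched Xist and Ddx3y in every library. All 12 CeA neuron markers were detected in every library, among them the GABA-synthesis gene Gad1 (311.5 to 1003 CPM), Sst (230.2 to 570.2 CPM), Prkcd (4.81 to 84.2 CPM) and Crh (1.99 to 21.5 CPM). The 12 choroid plexus markers varied most, with a summed level of 10.6 to 20716 CPM in females and 12.3 to 24525 CPM in males.

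Hemoglobin transcripts were present in every library and varied over a wide range. Levels are given as counts per 1000000 (CPM) on TMM-scaled library totals. Hba-a1 ran from 25.2 to 351 CPM in females (median 66.1) and from 17 to 621 CPM in males (median 50.0). Hbb-bs ran from 22.6 to 258 CPM in females (median 56.1) and from 18.7 to 416 CPM in males (median 43.1). The ranges of the sexes overlapped almost fully for both genes. Hbb-bt lay lower, with 3.16 to 54.3 CPM in females (median 9.13) and 2.42 to 82.3 CPM in males (median 6.47). Alas2, the heme-synthesis gene, had 0.766 to 13.3 CPM in females (median 2.47) and 0.697 to 23.1 CPM in males (median 1.98). Hba-a2 behaved differently from the other members: it had 0 to 79.7 CPM in females (median 0.209) and 0 to 15.8 CPM in males (median 0.105), with 0 counts in 12 libraries. Levels of different genes can be ordered only per length. Per kilobase of annotated exon, the median level over all libraries was 68.5 CPM for Hba-a1, 55.0 for Hbb-bs, 10.6 for Hbb-bt, 0.938 for Alas2 and 0.221 for Hba-a2. The ranges of Hba-a1 (20.9 to 765 CPM per kilobase) and Hbb-bs (21.7 to 482) largely coincided, while those of Hbb-bs and Alas2 (0.29 to 9.6) did not touch.

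**Figure D1:**
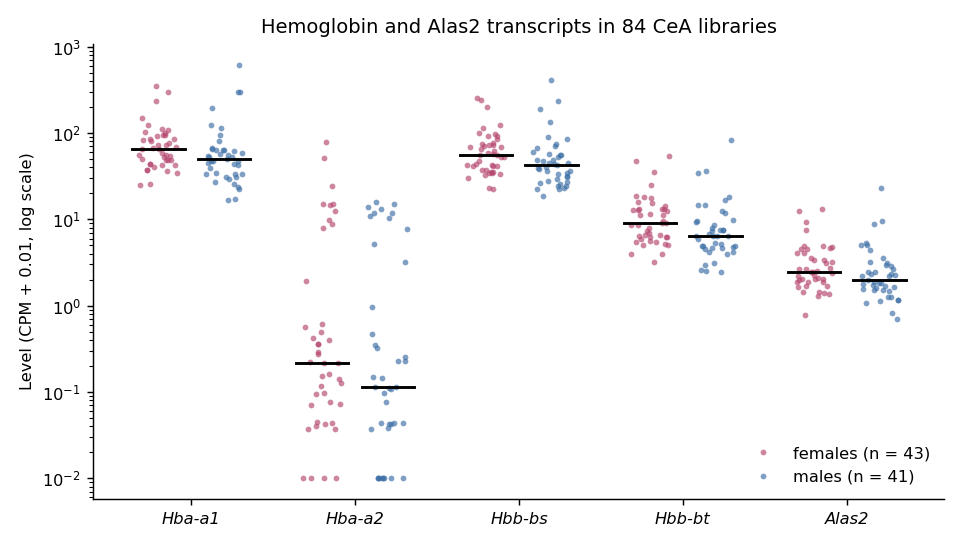
Level of each gene in each library, in CPM plus 0.01 on a log axis, with females left of males; each point is 1 animal and each bar the median. Hba-a1, Hbb-bs, Hbb-bt and Alas2 each spread around 1 median, whereas Hba-a2 splits into libraries above 5 CPM and many at 0 to 1 CPM, with 2 in between.

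The summed level of the 4 hemoglobin genes had a median of 114 CPM and ran from 46.9 CPM in male replicate 4 to 1120 CPM in male replicate 12, a 23.9-fold range. That is 0.00471% to 0.11% of all counts, so hemoglobin took a small part of each library. A total of 7 libraries exceeded 300 CPM, 3 of females (677, 658 and 523 CPM) and 4 of males (1120, 575, 527 and 350 CPM), and they came from all 4 runs. Bulk RNA cannot tell more red cells from more hemoglobin RNA per cell.

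Other globins and other blood genes spanned a wide range. The embryonic beta-like gene Hbb-y reached at most 8 counts and was at 0 in 45 libraries, Hbb-bh1 had 3 counts in all libraries together and the embryonic alpha-like gene Hba-x 1. The minor globin gene Hbq1a on chromosome 11 had more, with a median of 22 counts (0.665 CPM). Neuroglobin (Ngb), the globin of neurons, had a median of 36.2 CPM and cytoglobin (Cygb) of 99.7 CPM. Of the red-cell membrane genes, the anion exchanger gene Slc4a1, which encodes band 3, was near 0 with a median of 0.0597 CPM. Of the erythroid transcription factor genes, Gata1 had a median of 0 CPM and Klf1 of 0.197 CPM, while Tal1 had 2.36, Lmo2 19.5, Zfpm1 20.6 and Bcl11a 73.1 CPM. Of the neutrophil and monocyte genes, S100a8 and S100a9 had medians of 0.0633 and 0.0682 CPM and Csf3r of 5.68 CPM, and the whole list of 12 summed to 4.57 to 44.1 CPM in females and 4.58 to 14 CPM in males. Of the lymphocyte genes, the T cell gene Cd3e had a median of 0.0282 CPM and the immunoglobulin gene Ighm of 10.0 CPM, and the list of 10 summed to 5.55 to 135 CPM in females and 5.71 to 98.8 CPM in males. The part of these cells in the hemoglobin level was not tested.

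Whether the members share 1 level was asked by correlating their log2 CPM over the 84 libraries, as 14 relations in 1 family. Those of Hba-a2, taken within groups of libraries described below, serve as a description only. Hba-a1, Hbb-bs, Hbb-bt and Alas2 rose and fell together. Pearson's r was 0.95 for Hba-a1 with Hbb-bs and for Hbb-bs with Hbb-bt, and 0.90 for Hba-a1 with Hbb-bt (Spearman's rho 0.93, 0.90 and 0.83). Alas2, which shares neither sequence nor chromosome with the globin genes, had r = 0.92 with Hba-a1, 0.91 with Hbb-bs and 0.91 with Hbb-bt, with rho of 0.86, 0.84 and 0.82. All 6 had a 2-sided permutation p of 1e-05, the smallest that 100000 permutations can give (adjusted 1.4e-05). Within the 4 runs r was 0.81 to 0.97 for these 6 pairs, in females alone 0.87 to 0.94 and in males alone 0.91 to 0.96. Without the 2 libraries farthest from the median it was 0.88 to 0.94, and without the 7 libraries above 300 CPM, a choice made after seeing the data, 0.81 to 0.90. Scaling to the same library totals is common to both values of a pair.

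**Figure D2:**
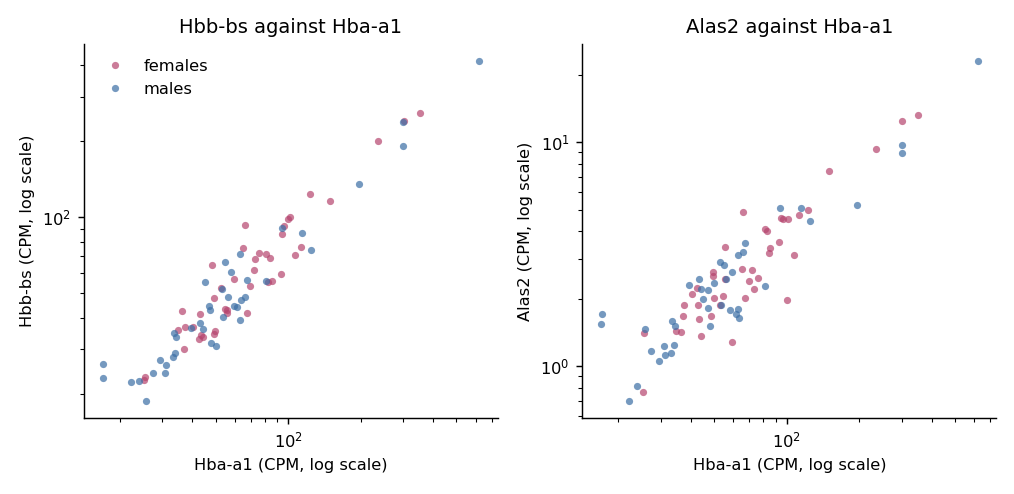
Hbb-bs (left) and Alas2 (right) against Hba-a1, in CPM on log axes, 1 point per library, coloured by sex. Both panels show 1 rising band for females and males alike (r = 0.95 and 0.92), with male replicate 12 at the upper end.

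Genes that went with the hemoglobin level were sought by fitting every gene on the log2 hemoglobin sum, with sex as a term. Outside the 4 hemoglobin genes themselves, edgeR called 16 of 16316 genes, or 0.0981%, at an adjusted p under 0.05: 11 rose (0.0674%) and 5 fell (0.0306%). Alas2 led them with a log2 change of 0.94 ± 0.04 (SE) per doubling of the sum (edgeR adjusted p = 2.83e-39), close to a doubling for a doubling. Isg20, an exonuclease gene on the list of late erythroid genes, rose by 0.43 ± 0.06 per doubling (edgeR adjusted p = 8.26e-07), from a median of only 0.438 CPM. It was also the gene outside the members whose log2 CPM resembled them most over the 84 libraries, with r = 0.65 for Hba-a1, 0.62 for Hbb-bs, 0.60 for Alas2 and 0.53 for Hbb-bt. The 2 genes next most like Hba-a1 were Fcgrt (r = 0.52) and Id1 (0.51), and those next most like Alas2 were the collagen gene Col3a1 (0.48) and the thrombomodulin gene Thbd (0.44).

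The other genes called with the hemoglobin sum differed in kind and size. Fcgrt, which encodes the neonatal Fc receptor, rose by 0.17 per doubling, Id1, a transcriptional regulator gene of endothelial and other cells, by 0.20 and Anxa3 by 0.19. Also among them were the hypothalamic neuropeptide genes Oxt (oxytocin, slope 1.86, from 0 to 312 CPM) and Gnrh1 (gonadotropin-releasing hormone, slope 0.75, from 0.0307 to 4.85 CPM). Ctsf (0.08), Tgs1 (-0.09), Necab1 (-0.21) and Cnot4 (-0.07) had small slopes. The count of calls moved with the settings: edgeR called 48 without male replicate 12, 13 without the 7 libraries above 300 CPM, 9 with run as a covariate and 26 with RLE size factors, and DESeq2 called 107. Alas2 passed under each of these settings, with slopes of 0.93 to 0.96, whereas Isg20 did not pass without the 7 libraries (slope 0.30, adjusted p = 0.194). Of the other named genes Oxt, Gnrh1 and Id1 passed without the 7 libraries (edgeR adjusted p = 0.0111, 0.00492 and 0.00686). With run as a covariate Ctsf, Necab1 and Cnot4 did not pass (edgeR adjusted p = 0.0508, 0.0639 and 0.0537).

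Lists of blood, vessel and brain genes were read against the same fit; they were chosen with earlier results of these data known. Of 16 late erythroid genes tested, Isg20 alone passed, and the median slope of the list was 0.01, beside -0.0035 over all genes. Of 13 heme-synthesis genes 0 passed, with a median of 0.0048, and among the 8 tested red-cell membrane genes 0 passed, with a median of -0.0012. Many of these genes are also expressed in brain, as the spectrin gene Sptb with a median of 202 CPM. Heme and hemoglobin clearance genes had a median slope of 0.07, and 0 of 11 passed, although 5 had an unadjusted p under 0.05: the ferritin gene Fth1 (0.11), the scavenger receptor gene Cd163 (0.34), the transferrin gene Trf (0.31), Hmox1 (0.08) and Hmox2 (0.06). Over all genes 15% had an unadjusted p under 0.05. Endothelial genes had a median slope of 0.06, with 12 of 16 above 0 and 0 called, and mural genes of 0.05, with 8 of 10 above 0 and 0 called. Platelet and megakaryocyte genes had a median slope of 0.06, with 3 of 5 above 0 and 0 called. Among them the platelet factor gene Pf4 had a slope of 0.35 (edgeR adjusted p = 0.0801). Choroid plexus genes had a median of -0.27 with all 12 below 0, and CeA neuron genes of -0.06, and 0 of 12 in each passed. The part of vessel and tissue content in the hemoglobin level was not tested.

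Within the alpha pair, the share of Hba-a2 did not vary smoothly but fell into 4 separate groups of libraries. The grouping was read from the data, by gaps above 1 in the sorted log2 ratio of Hba-a1 to Hba-a2 with 0.5 added to each count, of which there were 3. In 62 libraries, 32 of females and 30 of males, Hba-a2 held 0 to 1.11% of the alpha counts, that is 0 to 29 counts beside 593 to 21802 of Hba-a1. In 18 libraries, 10 of females and 8 of males, it held 16.6% to 21.3%. In 2 libraries of males it held 40.7% and 43.8%: male replicate 31 had 364 counts of Hba-a2 beside 530 of Hba-a1, and male replicate 16 had 369 beside 474. Between the large groups stood female replicate 32 with 3.66% (63 counts) and male replicate 18 with 6.35% (104 counts). No library lay between 6.35% and 16.6% or between 21.3% and 40.7%.

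Neither large group was confined to 1 sex, 1 run or 1 level of hemoglobin. Both held libraries of each sex and of all 4 runs, with 3, 5, 4 and 6 of the 18 and 15, 11, 13 and 23 of the 62 in runs 1 to 4. The hemoglobin sum ran from 52.2 to 677 CPM (median 140) in the 18 libraries and from 46.9 to 1120 CPM (median 113) in the 62. The relation of the groups to run and to the hemoglobin sum was not tested. The 7 libraries richest in hemoglobin included 2 of the 18, female replicates 9 (2500 counts of Hba-a2, 20.8%) and 13 (1565 counts), and 5 of the 62, such as male replicate 12 with 12 counts (0.055%). The 18 libraries were grouped by a narrow band of the log2 alpha ratio, 1.89 to 2.33, which ties Hba-a2 to Hba-a1 and through it to the other members. The r of Hba-a2 there, 0.99 with Hba-a1, 0.94 with Hbb-bs, 0.93 with Hbb-bt and 0.92 with Alas2, is therefore a description of the group and no test. In the 62 libraries the log2 ratio ran from 6.44 to 13.7 and Hba-a2 had few counts. There r was 0.42, 0.41, 0.42 and 0.35 for the same genes (rho 0.44, 0.43, 0.41 and 0.30), and 0.32 to 0.40 without the extreme libraries. That group was also set by the alpha ratio, which caps Hba-a2 by Hba-a1, so these r are a description too.

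**Figure D3:**
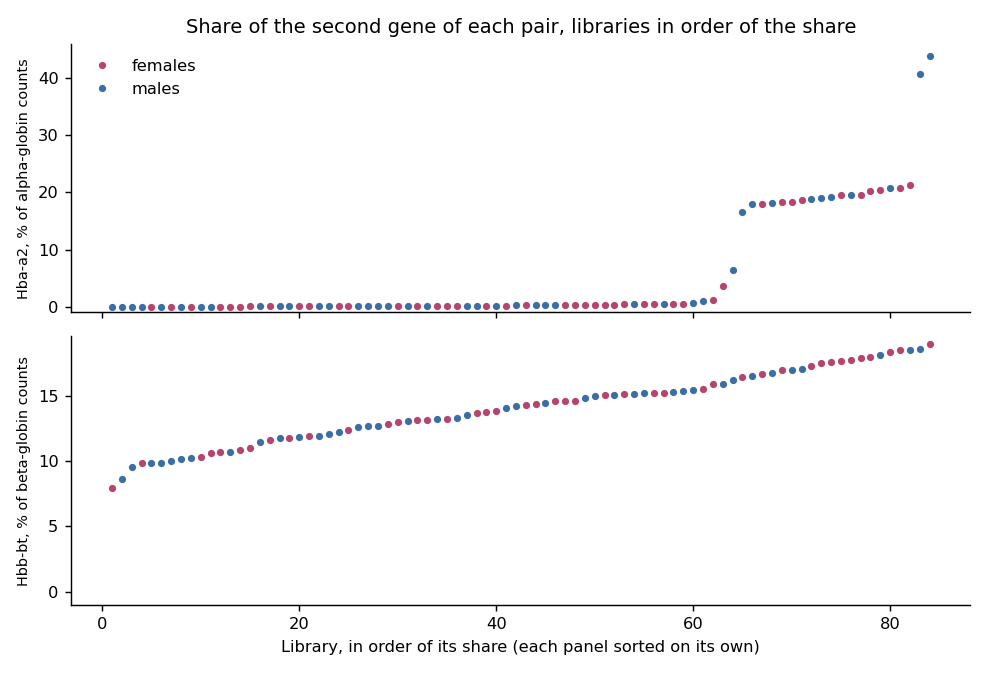
Percent of alpha-globin counts on Hba-a2 (top) and of beta-globin counts on Hbb-bt (bottom), 1 point per library, libraries sorted by the share in each panel and coloured by sex. Hba-a2 jumps from 0 to 1.11% in 62 libraries to 16.6 to 21.3% in 18 and 40.7 and 43.8% in 2, whereas Hbb-bt rises without a break from 7.95% to 19.0%.

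The total of alpha over beta counts had a narrower range than Hba-a1 alone over beta, a difference in spread that was not tested. The log2 ratio of Hba-a1 to both beta genes ran from -0.87 to 0.52 with an SD of 0.29, and that of both alpha genes to both beta genes from -0.44 to 0.54 with an SD of 0.23 (n = 84). In the 2 libraries with the largest Hba-a2 share, Hba-a1 alone gave -0.69 and -0.87 and both alpha genes together 0.14 and -0.11. These 2 libraries also had the lowest Hba-a1 levels of all, both 17 CPM, and their ratios of 0.14 and -0.11 lay inside the range of the 62 libraries with little Hba-a2, -0.22 to 0.52. The 18 libraries ran from -0.73 to 0.27 with Hba-a1 alone and from -0.44 to 0.54 with both alpha genes, and some of them lay below the lowest of the 62 in both ratios: with both alpha genes these were female replicates 12 (-0.44) and 41 (-0.35) and male replicates 5 (-0.24) and 34 (-0.23).

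**Figure D4:**
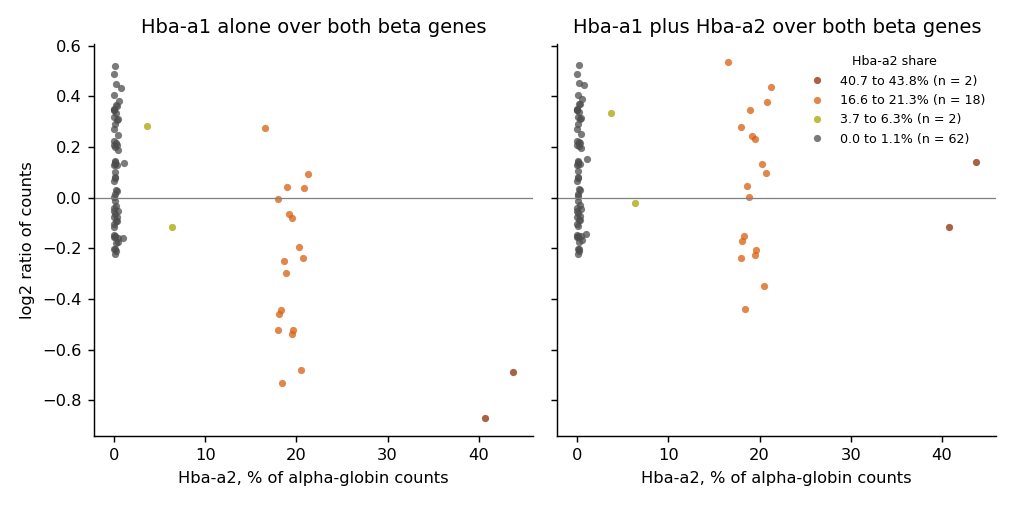
Log2 ratio of Hba-a1 alone (left) and of both alpha genes (right) to both beta genes, against the percent of alpha counts on Hba-a2, 1 point per library, coloured by group of Hba-a2 share. The 18 libraries with 16.6 to 21.3% of Hba-a2 span -0.73 to 0.27 on the left and -0.44 to 0.54 on the right, and the 2 with the largest share lie at -0.69 and -0.87 on the left and 0.14 and -0.11 on the right.

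Genes that went with the alpha ratio were sought in the same way, to ask whether the split marks a stretch of chromosome. Genotypes were not used here, so haplotype itself was not tested. In the 62 libraries with little Hba-a2 the log2 ratio, 6.44 to 13.7, rests on 0 to 29 counts of Hba-a2. Its spread there therefore also holds counting error and the level of Hba-a1. Outside the hemoglobin genes, edgeR called 2 of 16316 genes, or 0.0123%. Pttg1, the securin gene of chromosome separation, lies at chr11:43420250-43426251, 11.1 megabases (Mb) from Hba-a1, and fell by 0.37 ± 0.05 per doubling of the ratio of Hba-a1 to Hba-a2 (edgeR adjusted p = 4.71e-08). Its median was 13.2 CPM in the 18 libraries with 16.6% to 21.3% of Hba-a2 and 0.941 CPM in the 62 with at most 1.11%, but the ranges, 0.149 to 25.6 and 0.0623 to 15.4 CPM, overlapped. In the 2 libraries with the largest Hba-a2 share Pttg1 had 0.215 and 14.1 CPM, so it was not high in both. Pttg1 was also the gene most like Hba-a2 over the 84 libraries (r = 0.42). Next came Ric3 (0.38, chr7:109034312-109083331) and Eml6 (0.38, chr11:29743048-30026033). Ublcp1 (0.36, chr11:44454571-44470498) and Pgap2 (0.36, chr7:102210208-102238567) followed, so genes of chromosome 7, which holds the beta-globin genes, were among them too. Gm14681, a processed pseudogene at chrX:66778442-66778852, rose by 0.08 ± 0.01 per doubling (edgeR adjusted p = 0.000194). It had 0.355 and 0.537 CPM in the 2 libraries with the largest Hba-a2 share, a median of 1.00 CPM in the 18 and of 1.54 CPM in the 62.

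Within 10 Mb of Hba-a1, 0 of 79 genes tested were called, and within 20 Mb Pttg1 was the 1 called. At an unadjusted p under 0.05 the shares were 11.4% within 10 Mb and 8.99% within 20 Mb, beside 2.57% over all genes. Neighbouring genes tend to be inherited together, so these genes are not independent of each other. Hbq1a, the 1 minor globin gene tested, rose by 0.10 per doubling of the ratio of Hba-a1 to Hba-a2. Its edgeR unadjusted p was under 0.05, and it was not called. With the percent of Hba-a2 as the covariate in place of the log ratio, a choice made after seeing the data, Asb3 passed as well (chr11:30954395-31102704, 1.26 Mb away). It rose by 0.09 ± 0.02 per 10 percentage points (edgeR adjusted p = 0.035), with 21.8 and 22.5 CPM in the 2 libraries with the largest share, a median of 18.3 CPM in the 18 and of 16.0 CPM in the 62.

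Within the beta pair, the ratio of Hbb-bs to Hbb-bt was continuous. It ran from 4.26 to 11.5 with a median of 6.00, so Hbb-bt held 7.95% to 19.0% of the beta counts. At the low end of the ratio stood female replicate 20, with 1916 counts of Hbb-bs and 449 of Hbb-bt, and at the high end female replicate 28, with 2257 and 7.95% of the beta counts on Hbb-bt. The largest gap between neighbouring libraries on the log2 scale was 0.16, so no groups stood apart as they did for the alpha pair. The SD of the log2 ratio was 0.33, 3.29 times the median counting error of 0.10, so the spread exceeded counting error, which is the only error that value covers. In the 18 libraries with much Hba-a2 the log2 beta ratio was 2.14 to 2.95 (median 2.50), and in the 62 libraries with little it was 2.09 to 3.53 (median 2.69).

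With the log2 beta ratio as the covariate edgeR called 0 of 16316 genes outside the hemoglobin genes, beside 892, or 5.47%, at an unadjusted p under 0.05, and DESeq2 called 0. Within 10 Mb of Hbb-bs, 16 genes, or 10.1% of those tested, had an unadjusted p under 0.05, and within 20 Mb 7.78%. With run as a covariate 12 genes, or 7.59%, did so within 10 Mb, beside 5.60% over all genes. Neighbouring genes are not independent of each other here either. Of 21 tested genes written as neighbours of the cluster 0 passed, and Trim30d had the smallest p (slope -0.88, edgeR unadjusted p = 8.75e-05, adjusted 0.714). The members that do not form the ratio all had slopes below 0 per doubling of it: -1.19 ± 0.33 for Alas2 (edgeR unadjusted p = 0.000491, adjusted 0.765), -0.88 ± 0.35 for Hba-a1 (0.0136, adjusted 0.787) and -4.89 ± 1.29 for Hba-a2 (0.00029, adjusted 0.765). None passed in edgeR, whereas Hba-a2 passed in DESeq2 (slope -4.99, DESeq2 adjusted p = 0.00297). Without male replicate 12 the slopes were -0.87 for Alas2, -0.53 for Hba-a1 and -5.00 for Hba-a2 (edgeR adjusted p = 0.848). The 12 choroid plexus genes all had slopes above 0, with a median of 1.07 beside 0.0076 over all genes and 0 called. Their part in the beta ratio was not tested.

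No difference between the sexes in these transcripts or their ratios passed the threshold. The difference, female minus male, was 0.09 ± 0.25 for Hba-a1, 0.17 ± 0.22 for Hbb-bs, 0.23 ± 0.25 for Hbb-bt, 0.13 ± 0.23 for Alas2 and 0.89 ± 0.67 for Hba-a2 on the log2 scale (SE, edgeR adjusted p = 0.943 to 0.977). Over all genes 14, or 0.0858%, were called between the sexes, and 0 of them were members. One library moved the values: without male replicate 12 the differences were 0.39 for Hba-a1, 0.41 for Hbb-bs, 0.53 for Hbb-bt and 0.40 for Alas2 (edgeR unadjusted p = 0.0213 to 0.0784, adjusted 0.939). The log2 beta ratio averaged 2.60 ± 0.34 in females and 2.68 ± 0.33 in males (SD), a difference of -0.089 (2-sided permutation p = 0.227, adjusted over 2 ratios 0.454), and within the runs it was -0.15, 0.047, -0.046 and -0.15. For the log2 alpha ratio the difference was -0.20 (p = 0.796), with -1.06, 0.30, -0.074 and -0.12 within the runs.

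Drinking was the question of the study, and 0 of the 5 members passed the test against it in any fit. Preference is the volume from the ethanol tube over that from both tubes, and slopes are log2 changes per 0.5 rise in it. For mean preference over all 84 animals, with a term for sex, slopes were -0.19 ± 0.41 for Hba-a1, 0.00 ± 0.36 for Hbb-bs, 0.10 ± 0.40 for Hbb-bt, 0.05 ± 0.37 for Alas2 and 1.61 ± 1.15 for Hba-a2 (SE; edgeR unadjusted p = 0.164 to 0.997, adjusted 1). The 95% interval ran from -0.68 to 0.78 for Alas2 and from -0.99 to 0.61 for Hba-a1, so changes of up to about that size could not be told from 0. Over all genes edgeR called 0, which is 0%, and 643, or 3.94%, had an unadjusted p under 0.05, and DESeq2 called 0 as well.

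Single weeks and single sexes gave 0 calls among the members as well. For week 1 preference, where edgeR called 5 genes (0.0306%), member slopes ran from -0.11 to 0.48, and for week 13, with 0 called (0%), from 0.01 to 0.18. In females alone (0 called, 0%) they were 0.18 for Hba-a1, 0.75 for Hba-a2, 0.26 for Hbb-bs, 0.37 for Hbb-bt and 0.18 for Alas2. With run as a covariate the female slopes were larger, 0.61 for Hba-a1, 0.60 for Hbb-bs, 0.83 for Hbb-bt and 0.62 for Alas2, and again did not pass (edgeR unadjusted p = 0.0667 to 0.137, adjusted 0.581 to 0.716). In males alone (0 called, 0%) they were -0.70 for Hba-a1, 2.49 for Hba-a2, -0.38 for Hbb-bs, -0.28 for Hbb-bt and -0.14 for Alas2. Without the run covariate all these SE exceeded 0.27, and edgeR adjusted p-values ran from 0.94 to 1.00. The difference between the sexes in slope, female minus male, was 0.87 ± 0.81 for Hba-a1, -1.73 ± 2.43 for Hba-a2, 0.63 ± 0.73 for Hbb-bs, 0.64 ± 0.82 for Hbb-bt and 0.32 ± 0.76 for Alas2 (edgeR adjusted p = 0.999; 0 genes called, 0%). No member of the heme synthesis, red-cell membrane, erythroid factor, late erythroid and clearance lists was called in any of these preference fits or between the sexes, with 13, 8, 5, 16 and 11 members tested.

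**Figure D5:**
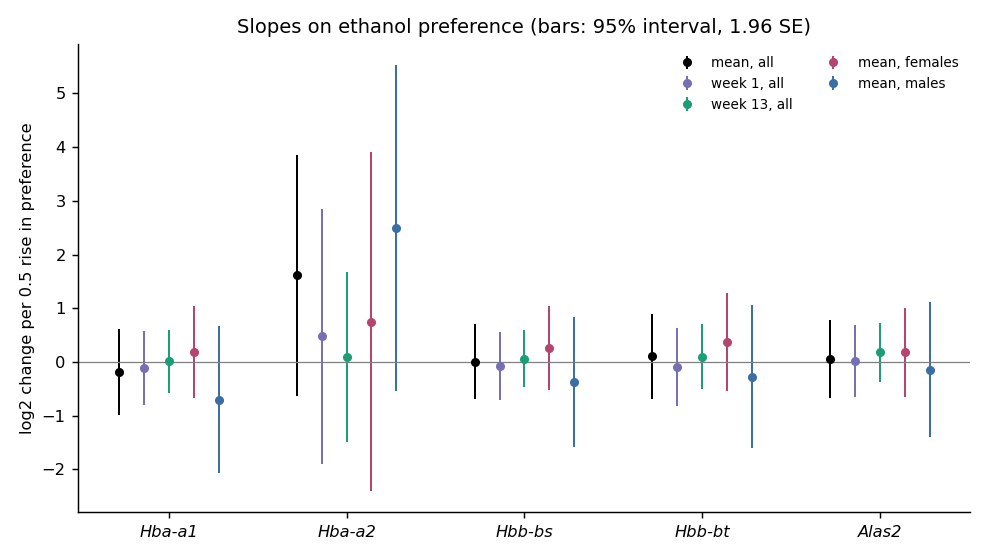
Log2 change of each gene per 0.5 rise in preference, for mean, week 1 and week 13 preference in all animals and for mean preference in females and in males; points are edgeR slopes and bars 95% intervals (1.96 SE). Every bar crosses 0, and those of Hba-a2 are the widest.

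The heaviest drinkers are described as single animals, without a test. The 6 animals with a mean preference of at least 0.5, 5 females and 1 male, had 82.6 to 190.6 CPM of hemoglobin (median 87.4), inside the 46.9 to 1120 CPM (median 115) of the other 78. None of the 7 libraries above 300 CPM belonged to them. With only 7 of 84 libraries above that level, this says little about 6 animals, as does lying inside the range of 78 others. Female replicate 12, with the highest mean preference of the 6 (0.759), had 66.1 CPM of Hba-a1 and 4.87 CPM of Alas2, and male replicate 30 (0.713) had 33.5 and 1.59 CPM. Both fell in the group of 18 libraries with much Hba-a2 (18.4% and 18.9%), and the other 4 heavy drinkers in the group of 62 (0 to 1.11%). Their log2 beta ratios were 2.26 to 2.74, inside the 2.09 to 3.53 of the others.

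The ratios were also set against preference directly, as 18 relations: the beta ratio in each sex, and the alpha ratio in each sex within each large group of libraries, for week 1, week 13 and mean preference. Pearson's r ran from -0.17 to 0.51, and all 18 had a permutation p adjusted to 0.906. For the beta ratio and mean preference, r was -0.13 in 43 females (2-sided permutation p = 0.421; rho -0.13, p = 0.418) and -0.17 in 41 males (p = 0.287; rho -0.13, p = 0.411). Without the 2 animals farthest from the median it was -0.08 in females and -0.16 in males. Within runs 1 to 4 it was 0.12, 0.05, -0.40 and -0.22 in females and 0.08, -0.29, -0.14 and -0.33 in males. The largest r, 0.51 for the alpha ratio and week 13 preference in the 10 females with 16.6% to 21.3% of Hba-a2 (permutation p = 0.128; rho 0.52, p = 0.135), was 0.30 without the 2 extreme animals and 0.68 with ethanol intake in place of preference (permutation p = 0.0289, adjusted 0.52). Relations within groups leave out the difference between the groups. Mean preference was 0.067 to 0.759 (median 0.265) in the 18 libraries with much Hba-a2. In the 62 libraries with little it was 0.026 to 0.549 (median 0.164), and this difference was not tested.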

How the data were processed

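RNA of the CeA was sequenced from 43 female and 41 male mice, 1 library each. The authors deposited raw read counts per gene, not normalized per the labels, and the submitters' processing notes name STAR, featureCounts 1.6.0 and build GRCm38. The sources used here give neither the strand setting nor the treatment of multi-mapping reads. In the table, 8 columns of values that name no sample were not used.

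Genes were kept by filterByExpr of edgeR 4.0.16 (minimum count 10, minimum total 15), scaled by TMM and fitted with the robust quasi-likelihood model on preference (per 0.5), sex, the log2 hemoglobin sum, or the log2 ratio of a pair with 0.5 added to each count. P-values were adjusted by Benjamini-Hochberg over all genes with a threshold of 0.05. The 4 hemoglobin genes were left out of counts of genes called on the hemoglobin sum and the ratios. Correlations used log2 CPM with a prior count of 2 and 100000 permutations, or all orders with 8 animals. DESeq2 1.42.0, RLE size factors, no filter, run as a covariate and leaving out male replicate 12 were the alternatives. Of the fits, only that on mean preference in all animals was tested on simulated data with known changes, with edgeR and DESeq2. Depth was 24118965 to 42036566 counts, and slopes on mean preference in all animals had a median SE of 0.11 over all genes. Intervals and SE of slopes cover the spread between animals, and counting errors counting only.

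The members and gene lists were chosen with earlier results of these data known. Named were the 5 members in every fit, the 10 genes with the smallest p among those called on the hemoglobin sum or a ratio and called genes near the locus, the genes most like each member, and called genes of each list; the other list genes given as values, and the single libraries, were chosen after their values were seen. Sequences are from RefSeq (promoters, 5 of 5 members matched) and the GRCm38 reference (coding windows).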

Additional observations from a re-analysis of the deposited data

How the results depend on the processing

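No paired analysis was possible because replicate numbers only follow the order in which samples are listed and pair no animals. The relations among Hba-a1, Hbb-bs, Hbb-bt and Alas2 kept their sign and their side of the threshold under every alternative run. Both sex differences of the ratios did so as well, and 0 member slopes on preference or sex passed under any of the alternatives. Without a filter on low counts, more genes were called in every fit: 46 for mean, 61 for week 1 and 61 for week 13 preference, 19 in females, 14 in males, 21 for sex by preference, 61 between the sexes, 69 with the hemoglobin sum, 32 with the beta and 45 with the alpha ratio. DESeq2 called 2 in males, 1 for sex by preference, 107 with the hemoglobin sum and 4 with the alpha ratio. With run as a covariate edgeR called 1 for sex by preference and 9 with the hemoglobin sum, with RLE size factors 26, and without male replicate 12 48.

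Some uncalled slopes changed sign, and the cause was not tested. Without male replicate 12, mean preference slopes were -0.039 for Hbb-bt and -0.063 for Alas2, and week 13 slopes -0.21 for Hba-a1, -0.12 for Hbb-bs, -0.12 for Hbb-bt and -0.00038 for Alas2. With run as a covariate, Alas2 had -0.24 for week 1, and Hba-a2 -0.35 and Hbb-bs -0.0063 for week 13. Of the relations of ratios to preference, 10 changed sign, all with an adjusted p of 0.937 or more. Without the 2 extreme animals, r for week 13 and the beta ratio was 0.0050 in females and 0.012 in males; for the alpha ratio in males it was -0.048 for week 1 in the 8 with much Hba-a2, and 0.012 for week 1 and -0.067 for week 13 in the 30 with little. Within runs it was -0.018 for week 13 in the 32 females with little, 0.0028 for week 1 in the 30 males with little, and 0.11 for week 13 and 0.092 for the mean in the 8 males with much. With intake it was -0.088 for week 13 in the 30 males with little. Near the alpha locus 1 gene was called within 20 Mb, and 1 within 10 Mb with the Hba-a2 percent as covariate.

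The near-identical copies limit what the counts of single genes mean.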
